A study of Mus musculus with 12 samples.

Results

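The genes described here are 10 mouse genes of the acute-phase and Reg families that respond to interleukin-22 or STAT3 in epithelia: the serum amyloid genes Saa1, Saa2 and Saa3, the secreted binding proteins Lcn2 and Hp, the complement gene C3, and the lectin genes Reg2, Reg3a, Reg3b and Reg3g. They were chosen as a list of symbols and make up 10 of the 24421 gene symbols counted in each library. Of the 10, 4 (Saa3, Lcn2, Hp and C3) passed the low-count filter of the test across genes, 5 (Saa1, Saa2, Reg3a, Reg3b and Reg3g) had reads but too few for it, and Reg2 had no read in any library.

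Messenger RNA was sequenced in 12 samples of Min6, a mouse insulinoma line that makes and secretes insulin and serves as a model of the beta cell. In 6 samples the cells carried the sh-Il22ra1 adenovirus, which encodes a hairpin against the ligand-binding chain of the interleukin-22 receptor, and in the other 6 the control adenovirus sh-ctrl, each for 48 h. All samples also received 0.3 mM palmitate (PA), a saturated fatty acid used to mimic lipid overload, for 24 h, carried the genotype label WT, and grew in a medium whose additive the labels spell as penicillin-streptozotocin. No sample compared here lacked virus or palmitate, and no added interleukin-22 is named, so induction by the cytokine was not measured. Whether a group's 6 samples came from separate cultures, and how many hairpin sequences were used, is not stated, so the p-values reflect variation among these samples alone, and that variation may be technical. In sh-Il22ra1 replicates 2 to 6 the treatment label gives Il22ra with a rising last number, and each was grouped by its title.

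Acute-phase proteins are made mainly by hepatocytes, and in smaller amounts by epithelia, when cytokines signal infection or injury. Interleukin-22 binds a receptor made of IL22RA1 and IL10RB, whose kinases phosphorylate the transcription factor STAT3, while tumour necrosis factor and interleukin-1 act through NF-kB and together with C/EBP factors on many of the same promoters. Reg proteins are small secreted lectins, several of which bind bacteria in the gut, and in the pancreas they are best known from acinar cells and from injured islets.

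Reads in genes numbered 14408600 to 15595600 in sh-Il22ra1 libraries and 13108494 to 15887448 in sh-ctrl libraries. CPM denotes reads per 1e+06 reads in genes, scaled by TMM, a method that equalises the bulk of genes between libraries. The share of reads without an alignment was 8.71% to 11.8% in sh-Il22ra1 and 12.8% to 17.3% in sh-ctrl, and its part in the results was not tested. On the second principal component (13.7% of the variance) sh-ctrl replicates 1 and 4 scored highest (18.2 and 31.9). Results without them are therefore also given for the members Saa3, Lcn2, Hp, Reg3b and Reg3g. The sh-ctrl libraries were spread to both sides, with replicates 2 and 6 at -17.7 and -16.2. A fit without replicates 2 and 6 together was not run. All 15 defining beta-cell markers were above 1 CPM, which fits the label of the line, and the 7 defining acinar markers were all below 1 CPM, with 3 of them, Prss2, Amy2a5 and Ptf1a, at 0 reads.

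The targeted gene, Il22ra1, was lower in sh-Il22ra1, with no overlap between the groups. Its lowest, median and highest levels were 0.0678, 0.166 and 0.260 CPM in sh-Il22ra1 and 0.534, 0.818 and 1.24 CPM in sh-ctrl. The 6 libraries of each group held 15 reads in sh-Il22ra1 and 74 in sh-ctrl, a ratio of 0.197 (95% interval 0.105 to 0.346), and a two-sided exact permutation test on CPM gave p = 0.00216, the smallest that 6 against 6 libraries allow. Intervals on read ratios and floors cover counting error only, here and below.

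The stretches upstream of 4 of the genes are shown because Saa3 had the largest called change, C3 did not pass the test, and Reg3b and Reg3g, which lie in 1 gene cluster, gave most of their reads in the same libraries. They come from the 250 bases before the RefSeq start on GRCm38.p6, each being the longest run free of exons in GENCODE (for Reg3b 154 bases, from -178 to -25), are written 5′ to 3′ on the strand of the gene, and carry in capitals each match to 1 of 3 motifs, searched on both strands: the STAT motif TTCNNNGAA, the C/EBP motif TTGCNNAA and the NF-kB consensus. The Saa3 stretch is chr7:46715701-46715926 on the minus strand, C3 chr17:57228137-57228386 on the minus strand, Reg3b chr6:78370707-78370860 on the plus strand and Reg3g chr6:78468875-78469124 on the minus strand.
Saa3: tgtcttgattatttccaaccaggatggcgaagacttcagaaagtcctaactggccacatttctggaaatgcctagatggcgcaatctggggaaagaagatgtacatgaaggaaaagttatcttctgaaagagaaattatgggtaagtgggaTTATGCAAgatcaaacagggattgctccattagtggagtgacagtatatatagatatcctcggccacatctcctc
C3: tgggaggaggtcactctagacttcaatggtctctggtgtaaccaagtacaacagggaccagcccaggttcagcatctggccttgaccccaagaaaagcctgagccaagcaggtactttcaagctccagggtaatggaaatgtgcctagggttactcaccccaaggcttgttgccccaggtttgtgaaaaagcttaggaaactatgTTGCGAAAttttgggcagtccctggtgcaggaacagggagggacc
Reg3b: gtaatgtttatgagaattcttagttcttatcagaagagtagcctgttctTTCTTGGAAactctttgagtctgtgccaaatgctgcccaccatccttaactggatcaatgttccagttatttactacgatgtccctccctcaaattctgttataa
Reg3g: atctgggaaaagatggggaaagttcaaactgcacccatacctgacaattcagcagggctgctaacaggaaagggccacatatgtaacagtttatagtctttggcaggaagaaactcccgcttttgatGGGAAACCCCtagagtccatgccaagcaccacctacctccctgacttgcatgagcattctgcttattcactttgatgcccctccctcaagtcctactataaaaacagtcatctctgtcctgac
The capitals mark a C/EBP match in Saa3, written there as its reverse complement, and in C3, a STAT match in Reg3b and an NF-kB match in Reg3g.

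Of the 10 genes, 9 have an entry in the RefSeq promoter table, and each of the 9 windows of 250 bases held a match to 1 of the 3 motifs. Among all 32851 windows of that length, 7.02% held the STAT motif, 9.56% the C/EBP motif and 7.25% the NF-kB consensus. The C/EBP motif stood in 7 of the 9 windows, those of Saa1, Saa2, Saa3, Lcn2, C3, Reg2 and Reg3a, and these windows belong both to genes that rose and to genes that did not pass or were almost silent. In Saa3 it lay from -99 to -92 relative to the start, in Lcn2 from -216 to -209 and in C3 from -45 to -38. In the Lcn2 window, 197 of the 250 bases are exonic in GENCODE and only -111 to -59 is free of exons. The Lcn2 match therefore lies in annotated exon. The STAT motif stood only in Reg3b, from -129 to -121, and the NF-kB consensus only in Reg3g, from -123 to -114. The windows of Saa1 and Saa2 were 95.6% identical when aligned, so their matches are not independent, and those of Reg3b and Reg3g were 72.8% identical. A match is a run of letters and not a measured binding site, and a window without one says only that those letters are absent from it.

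Among the 4 genes that could be tested across the transcriptome, Saa3, Lcn2 and Hp were higher in sh-Il22ra1 and C3 did not pass the test. Saa3 was 3.48-fold, Lcn2 2.21-fold and Hp 2.07-fold higher in sh-Il22ra1 than in sh-ctrl. Thus 3 of 4 were called higher and 0 of 4 lower at 0.05 in the edgeR quasi-likelihood F-test, with p-values adjusted by the Benjamini-Hochberg method. Of all 13102 tested genes, 25.4% were called higher, 26.5% lower and 51.9% in either direction, so a call by itself was common in these libraries. The median log2 fold change of all tested genes was -0.0042. In bulk samples, fewer cells of a type and less RNA per cell cannot be told apart.

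**Figure D1:**
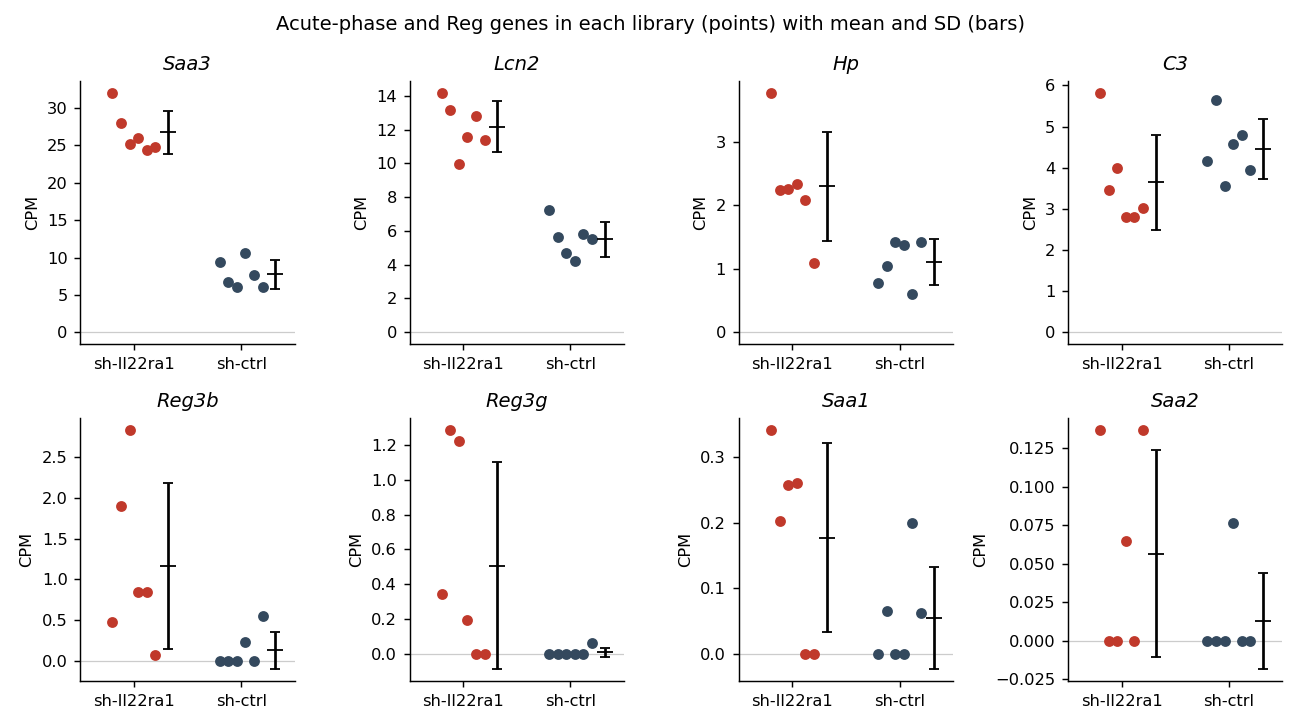
Levels in CPM of 8 of the genes in each library, with 6 sh-Il22ra1 points left and 6 sh-ctrl points right in each panel, and bars for the mean and SD; each panel has its own linear axis. The groups do not overlap for Saa3 and Lcn2, they overlap for Hp and C3, and Reg3b and Reg3g spread widely within sh-Il22ra1.

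Saa3 encodes the serum amyloid A that mouse tissues outside the liver make in inflammation. It lies at chr7:46711998-46715700 on the minus strand of GRCm38. Its lowest, median and highest levels were 24.3, 25.6 and 32.02 CPM in sh-Il22ra1 and 5.99, 7.17 and 10.6 CPM in sh-ctrl. The groups did not overlap, and the highest sh-ctrl levels came from replicates 1 and 4, the libraries that scored highest on the second principal component. The groups averaged 26.7 ± 2.89 CPM in sh-Il22ra1 and 7.73 ± 1.89 CPM in sh-ctrl (SD, n = 6 each), from 2410 and 666 reads in all. In log2 units the fold change was 1.80 (SE 0.128, Benjamini-Hochberg adjusted p = 2.04e-09 by the edgeR quasi-likelihood test), and 9 of the 13102 tested genes had a larger one. Without sh-ctrl replicates 1 and 4 it was 2.00. Even so Saa3 was not an abundant transcript: its level over all 12 libraries stood at the 38.2nd percentile of tested genes, whose median was 27.9 CPM.

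Saa1 and Saa2 encode the circulating acute-phase serum amyloids, which the liver makes and high-density lipoprotein carries. They lie beside Saa3, at chr7:46740497-46742980 on the minus strand and chr7:46751790-46754313 on the plus strand, and were close to silent. Saa1 had 5, 3, 4, 4, 0 and 0 reads in sh-Il22ra1 replicates 1 to 6 and 0, 1, 0, 0, 3 and 1 reads in sh-ctrl replicates 1 to 6. The 16 and 5 reads in all gave a ratio of 3.11 (95% interval 1.09 to 10.8), the groups overlapped, and the two-sided exact permutation test on CPM did not pass (p = 0.132). It passed only without sh-Il22ra1 replicate 5 or 6, the 2 libraries of that group with no Saa1 read (exact permutation p = 0.0433 in each case). Saa2 had 5 reads in sh-Il22ra1 and 1 in sh-ctrl (ratio 4.85, 95% interval 0.543 to 230; exact permutation p = 0.303), which is too few to show a difference at this depth. The transcripts of Saa1 and Saa2 are 94.4% identical and share 51 stretches of 50 bases, so reads may have been dropped or placed in the wrong copy. Saa3 shares 9 such stretches with Saa1 and none with Saa2.

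A serum amyloid gene outside the list, Saa4, was looked at after its values were seen, because it lies between Saa3 and Saa1. It encodes a serum amyloid known as constitutive rather than acute-phase in liver. It had 27 reads in sh-Il22ra1 and 7 in sh-ctrl, a ratio of 3.74 (95% interval 1.59 to 10.2; two-sided exact permutation p = 0.00866). The members Saa1, Saa2 and Saa3 together had 364 to 475 reads per sh-Il22ra1 library and 90 to 140 per sh-ctrl library, of which Saa3 gave nearly all.

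Tested neighbours of Saa3 went in both directions. Within 200 kb of the Saa3 start, 6 genes other than Saa3 were tested: Gtf2h1, a subunit of the general transcription factor TFIIH, rose (log2 fold change 0.33), Tph1, which encodes an enzyme of serotonin synthesis, and Ldha, a lactate dehydrogenase subunit, fell by 0.89 and 0.69 on the log2 scale, and 3 did not pass. The nearest of these, Saal1, starts 5.02 kb away and had a log2 fold change of 0.0074 (SE 0.0792). Around Lcn2 2 of 14 tested neighbours rose, 4 fell and 8 did not pass, and around Hp 4 of 8 rose, 2 fell and 2 did not pass. None of the 10 genes overlaps another annotated gene apart from C3, which holds the microRNA gene Mir6978.

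**Figure D2:**
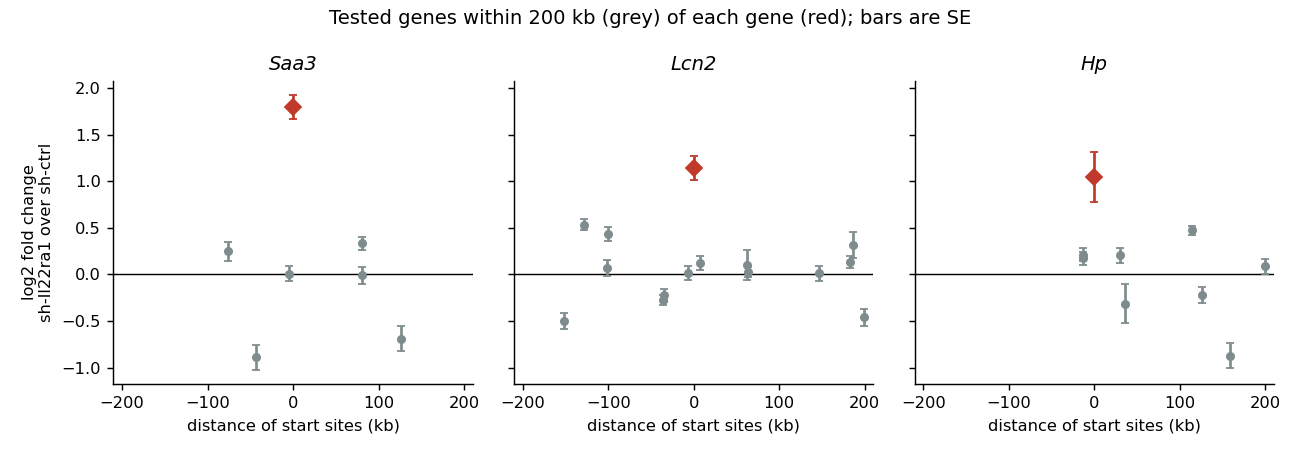
Log2 fold change (sh-Il22ra1 over sh-ctrl) against the distance between start sites in kb for the tested genes within 200 kb of Saa3, Lcn2 and Hp; grey points are neighbours, the red diamond is the named gene, and bars are SE. Saa3 stands at 1.80 while its neighbours run from -0.89 to 0.33.

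Lcn2 encodes lipocalin 2, which binds bacterial siderophores and so withholds iron from microbes. It lies at chr2:32384633-32388252 on the minus strand. Its lowest, median and highest levels were 9.98, 12.2 and 14.2 CPM in sh-Il22ra1 and 4.20, 5.57 and 7.23 CPM in sh-ctrl. The groups did not overlap, and sh-ctrl replicate 1 was the highest of its group. With 1097 reads in sh-Il22ra1 and 482 in sh-ctrl, the log2 fold change was 1.14 (SE 0.125, adjusted p = 5.34e-07 by the edgeR test), and it was 1.15 without sh-ctrl replicates 1 and 4. In 93 of the tested genes the log2 fold change was larger.

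Saa3 and Lcn2 were therefore the 2 of 4 tested members whose groups did not overlap with sh-Il22ra1 higher, a pattern found in 13.5% of all tested genes, against 14.6% with sh-Il22ra1 lower and no member.

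Hp encodes haptoglobin, which binds free haemoglobin in plasma. It lies at chr8:109575128-109579172 on the minus strand. Its lowest, median and highest levels were 1.10, 2.24 and 3.76 CPM in sh-Il22ra1 and 0.601, 1.21 and 1.42 CPM in sh-ctrl. The groups overlapped only through sh-Il22ra1 replicate 6, which at 1.10 CPM lay within the sh-ctrl range, and sh-Il22ra1 replicate 1 was the highest library. The 207 and 97 reads gave a log2 fold change of 1.05 (SE 0.269, adjusted p = 0.00320 by the edgeR test). It was 1.01 without sh-ctrl replicates 1 and 4, and 0.86 to 1.18 when each library was left out in turn, past the threshold each time. The filter asks for 6 libraries at or above 0.671 CPM, which Hp met in 6 of 6 sh-Il22ra1 and 5 of 6 sh-ctrl libraries, so that sh-Il22ra1, where it was higher, would have passed it alone and sh-ctrl would not.

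C3 encodes the central protein of complement, on which all its activation routes converge. It lies at chr17:57203970-57228136 on the minus strand. Its lowest, median and highest levels were 2.79, 3.24 and 5.82 CPM in sh-Il22ra1 and 3.56, 4.37 and 5.64 CPM in sh-ctrl. The groups overlapped, with the highest library of all in sh-Il22ra1 and the other 5 of that group below the sh-ctrl median. The log2 fold change of -0.29 (SE 0.180) did not pass the edgeR test (adjusted p = 0.188). This rested on 1 library: without sh-Il22ra1 replicate 1, at 5.82 CPM, C3 was called lower in sh-Il22ra1 (-0.47, adjusted p = 0.0185 in the same edgeR test). That replicate also had the highest Saa3, Lcn2 and Hp levels of its group.

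**Figure D3:**
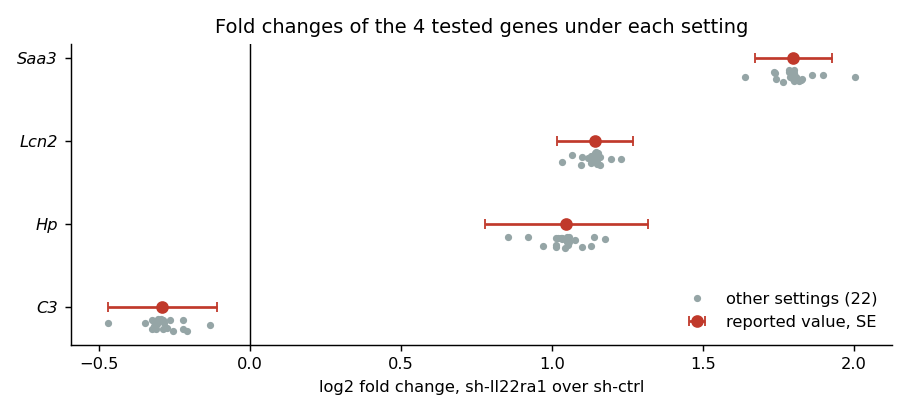
Log2 fold change (sh-Il22ra1 over sh-ctrl) of Saa3, Lcn2, Hp and C3: red points with SE bars are the reported values and grey points the other 22 settings, which include each library left out in turn. Saa3 stays between 1.64 and 2.00, Lcn2 between 1.03 and 1.23 and Hp between 0.86 and 1.18, while C3 runs from -0.47 to -0.13.

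Divided by transcript length, so that genes can be set beside each other, Saa3 was the highest of the 10 genes in both groups. Its level was 48.2 ± 5.20 CPM per kb in sh-Il22ra1 and 13.9 ± 3.40 CPM per kb in sh-ctrl (SD, n = 6 each). Lcn2 came next, with 13.3 ± 1.63 CPM per kb in sh-Il22ra1 and 6.02 ± 1.14 CPM per kb in sh-ctrl. Both were clear of Hp, with 1.71 ± 0.635 CPM per kb in sh-Il22ra1 and 0.819 ± 0.266 CPM per kb in sh-ctrl. Reg3b had 1.48 ± 1.30 CPM per kb in sh-Il22ra1 and 0.167 ± 0.291 CPM per kb in sh-ctrl, and C3 had 0.710 ± 0.225 CPM per kb in sh-Il22ra1 and 0.866 ± 0.142 CPM per kb in sh-ctrl. Hp and Reg3b lay within their spread of each other in sh-Il22ra1, as did Hp and C3 in sh-ctrl. So the order after Lcn2 was Hp, Reg3b, C3 and Reg3g in sh-Il22ra1, where C3 and Reg3g also lay within their spread of each other, but C3, Hp and Reg3b in sh-ctrl.

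The Reg genes are neighbours on chromosome 6, and in these cells reads came almost only from Reg3b and Reg3g, and mostly in sh-Il22ra1 libraries. Reg3b lies at chr6:78370657-78373466 on the plus strand, Reg3a at chr6:78380709-78383827 and Reg2 at chr6:78395623-78408106 on the same strand, and Reg3g at chr6:78466269-78468872 on the minus strand. The 4 genes together had 12, 48, 63, 16, 13 and 1 reads in sh-Il22ra1 replicates 1 to 6 and 0, 0, 0, 3, 0 and 10 reads in sh-ctrl replicates 1 to 6. The family was thus uneven within both groups, with sh-Il22ra1 replicate 6 as low as most sh-ctrl libraries and sh-ctrl replicate 6 close to the lower sh-Il22ra1 libraries.

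Reg3b encodes a gut lectin, also known as pancreatitis-associated protein, that is raised in the injured pancreas. Its reads numbered 7, 28, 44, 13, 13 and 1 in sh-Il22ra1 replicates 1 to 6 and 0, 0, 0, 3, 0 and 9 in sh-ctrl replicates 1 to 6. Its lowest, median and highest levels were 0.0685, 0.846 and 2.83 CPM in sh-Il22ra1 and 0, 0 and 0.556 CPM in sh-ctrl. The groups overlapped through replicate 6 of each group. The 106 and 12 reads gave a ratio of 8.57 (95% interval 4.71 to 17.1), and the two-sided exact permutation test on CPM gave p = 0.0195, unadjusted. Without sh-ctrl replicates 1 and 4, which leaves fewer splits, exact permutation gave p = 0.0952. With no low-count filter, the edgeR test gave a log2 fold change of 3.03 (SE 0.725, adjusted p = 0.00165).

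Reg3g encodes a lectin that binds Gram-positive bacteria. It had 5, 19, 19, 3, 0 and 0 reads in sh-Il22ra1 replicates 1 to 6 and 0, 0, 0, 0, 0 and 1 in sh-ctrl replicates 1 to 6. Its reads thus came mostly from sh-Il22ra1 replicates 2 and 3, the same 2 libraries that were highest for Reg3b, and sh-Il22ra1 replicates 5 and 6 had none. The 46 reads in sh-Il22ra1 and the 1 read in sh-ctrl gave a ratio of 44.6 (95% interval 7.62 to 1801). The two-sided exact permutation test on CPM did not pass (p = 0.0606), and passed without sh-Il22ra1 replicate 5 or 6 (p = 0.0152 in each case), while the edgeR test and no low-count filter gave a log2 fold change of 4.71 (SE 1.10, adjusted p = 0.00133). The transcripts of Reg3b and Reg3g are 77.6% identical and share no stretch of 50 bases.

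Reg3a, another Reg lectin, had 1 read in all, in sh-Il22ra1 replicate 2, and none in sh-ctrl. Reg2, known in mice as a regenerating-islet gene, had 0 reads in all 12 libraries, which at 3 counts over the group allows at most 0.0343 CPM in sh-ctrl and at most 0.202 CPM in a single library. The remaining genes of the cluster, Reg1 and Reg3d, had 1 read and 0 reads. The 7 defining acinar markers, named because Reg genes are best known from acinar cells, summed to 0 to 0.451 CPM in sh-Il22ra1 and 0 to 0.307 CPM in sh-ctrl, with 23 and 16 reads.

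Macrophages also make Saa3 and Lcn2, and leukocyte markers were lower or did not pass. The leukocyte genes, 17 of the 18 listed being in the files, summed to 14.6 to 19.2 CPM in sh-Il22ra1 and 26.8 to 37.8 CPM in sh-ctrl, with 0 of 5 tested genes higher, 3 lower and 2 not past the threshold; 2 were called higher without sh-ctrl replicates 1 and 4. Of the 6 defining ones, 5 were below 1 CPM, and Cd68, a lysosomal protein of macrophages, averaged 6.17 CPM in sh-Il22ra1 and 22.03 CPM in sh-ctrl. Hepatocytes are the main source of Hp and C3: of 13 hepatocyte genes 8 were tested, 0 rose and 2 fell. The genes that fell were Ttr, which encodes transthyretin, made by islets as well, at 760 CPM in sh-Il22ra1 and 975 CPM in sh-ctrl, and Alb, which encodes albumin, at 2.54 CPM in sh-Il22ra1 and 3.57 CPM in sh-ctrl, and of the 4 defining hepatocyte markers 1 was below 1 CPM. Among 20 beta-cell genes 5 rose, 10 fell and 5 did not pass. Among duct genes 1 of 5 tested rose and 3 fell, and among fibroblast and endothelial genes 0 of 6 tested rose and 4 fell.

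The other acute-phase genes went in both directions. Of 30 listed, 9 were tested, and 3 rose, 2 fell and 4 did not pass, with a median log2 fold change of -0.016. The highest fold change was that of Steap4, a metalloreductase of inflamed tissue, at 1.76, 2.38 and 2.78 CPM (lowest, median and highest) in sh-Il22ra1 and 0.130, 0.345 and 0.534 CPM in sh-ctrl. Every sh-ctrl library was below the filter cutoff of 0.671 CPM, so Steap4 passed the filter only through sh-Il22ra1, the group where it was high. Its log2 fold change was 2.76 (SE 0.253, adjusted p = 6.17e-08 in the edgeR test). Serpina3n, a protease inhibitor (log2 fold change 0.37, SE 0.0920), and Il1rn, the interleukin-1 receptor antagonist (0.38, SE 0.144), rose by less, and Crp, which encodes C-reactive protein, fell (-0.31, SE 0.0815). The metallothionein gene Mt1 fell too (-0.51, SE 0.190), a call that was lost without sh-ctrl replicates 1 and 4 (-0.16; edgeR adjusted p = 0.196) and under 6 other settings.

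Complement genes around C3 mostly did not pass either. Of 31 listed, 10 were tested: C8g, which encodes the gamma chain of C8, rose (log2 fold change 0.42), Clu (-0.55), an inhibitor of the membrane attack complex, and C1qa (-0.61), a chain of C1q, fell, and 7 did not pass, with a median of -0.049. The other chains of C1q, C1qb and C1qc, had at most 11 reads in either group. Among 22 other Reg and antimicrobial genes, 3 were tested and only Muc1, a cell-surface mucin gene, passed, in the lower direction (-0.75, SE 0.271), a call lost when any of 3 libraries, replicate 1 of either group or replicate 6 of sh-ctrl, was left out.

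**Figure D4:**
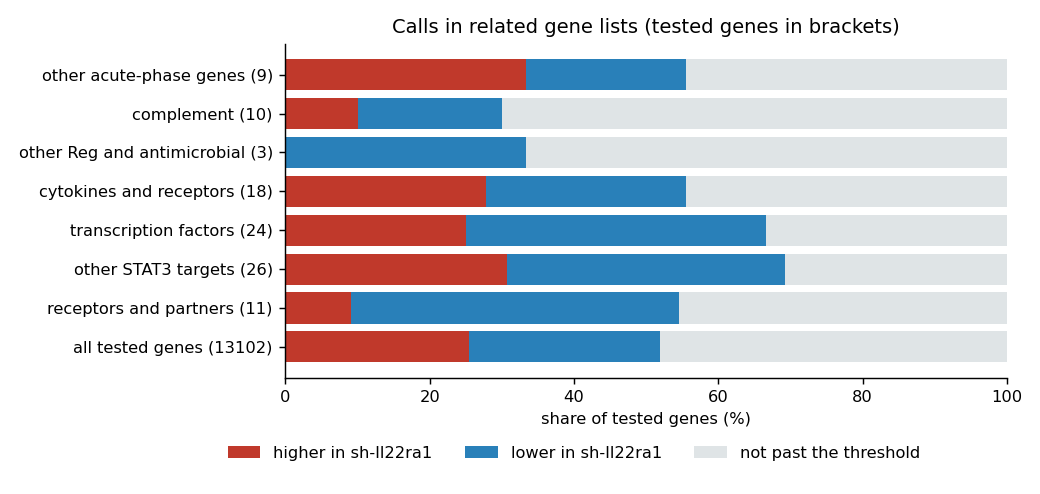
Share in percent of the tested genes of each related list that was higher in sh-Il22ra1 (red), lower (blue) or not past the edgeR threshold (grey), with the number tested in brackets. All tested genes have 25.4% higher and 26.5% lower; complement, with 10 tested genes, has 1 higher and 2 lower.

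Cytokines and receptors that feed these genes changed in both directions, with 5 of 18 tested genes higher, 5 lower and 8 not past the threshold (median -0.023). The ligands were chosen after their values were seen: Tnf, the tumour necrosis factor gene, was at 6.71, 8.67 and 9.72 CPM (lowest, median and highest) in sh-Il22ra1 and 2.90, 4.59 and 5.92 CPM in sh-ctrl. Its groups did not overlap (log2 fold change 0.96, SE 0.157, edgeR adjusted p = 5.89e-05), and Il1b, the interleukin-1 beta gene, rose by 0.80 (SE 0.231). Myd88, the adaptor of interleukin-1 and Toll-like receptors, rose as well (0.65, SE 0.0685), while the receptor gene Il1r1 fell (-0.94, SE 0.0971), at 132 ± 12.4 CPM in sh-Il22ra1 and 253 ± 42.6 CPM in sh-ctrl (SD, n = 6 each). Of the interleukin-6 family receptors, Il6st, which encodes gp130 (-0.72, SE 0.135), and Lifr (-0.78, SE 0.144) fell. Il10rb, the partner chain of Il22ra1 in the interleukin-22 receptor, did not pass (log2 fold change 0.020, SE 0.0817). This is a small value whose sign turned with length and GC offsets. The receptor gene Il20rb had the smallest p of the list and fell (-0.82, SE 0.0785, edgeR adjusted p = 1.04e-07). It averaged 27.6 CPM in sh-Il22ra1 and 48.6 CPM in sh-ctrl, and its groups did not overlap. The receptor gene Il17rc rose (0.63, SE 0.0726). Transcripts of interleukin-22 and interleukin-6 were near 0: Il22 had 0 reads in sh-Il22ra1 and 3 in sh-ctrl, and Il6 had 0 and 1.

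Among 24 tested transcription factors and inhibitors known at acute-phase promoters, 6 rose, 10 fell and 8 did not pass (median -0.11). With offsets for transcript length and GC content the split turned to 10 higher and 6 lower, so the direction of the list depends on that scaling. Nfkbiz, whose protein IkB-zeta is a cofactor of NF-kB at Lcn2 in mice, rose by 0.49 (SE 0.0940), at 24.7 ± 2.24 CPM in sh-Il22ra1 and 17.6 ± 2.48 CPM in sh-ctrl (SD, n = 6 each). Rela, the p65 subunit of NF-kB, rose by 0.30 (SE 0.0507), as did Nfkbia, its inhibitor (0.42, SE 0.0624). Nfkb1 (-0.12, SE 0.0775), which encodes the p50 precursor, did not pass. It was called lower under 2 of 22 other settings, 1 of them without sh-ctrl replicate 4 (-0.18). Over all settings its log2 fold change ran from -0.22 to -0.012. Other NF-kB genes of the list did not rise. Bcl3 (-0.51, SE 0.0849) and Nfkb2 (-0.32, SE 0.0755) fell, and Rel (-0.51, SE 0.235) and Relb (-0.0046, SE 0.0631) did not pass. The AP-1 gene Junb (0.73) and the interferon regulator Irf1 (0.46) rose, and the hepatic factor Hnf4a fell (-0.85). Cebpb, the C/EBP factor known from acute-phase induction, did not pass (log2 fold change 0.10, SE 0.0833), but was called higher with the length and GC offsets (0.30) and without sh-ctrl replicate 4 (0.17). Cebpd fell (-0.19, SE 0.0673), and lost its call under 4 settings.

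Stat3 itself did not pass (log2 fold change -0.067, SE 0.0922), was called lower without sh-ctrl replicates 1 and 4 (-0.21), and turned to 0.054 with the length and GC offsets. Of 26 tested other targets of STAT3, 8 rose, 10 fell and 8 did not pass, with a median of -0.060. Socs3, the feedback inhibitor of the pathway, fell by 0.24 on the log2 scale (SE 0.0625), and Socs2 fell by 0.76. Icam1, an adhesion molecule gene, and Junb rose by 0.72 and 0.73, and Hif1a, the hypoxia factor gene, fell (-0.69). Junb, Bcl3, Stat3 and Il6st stand on more than 1 of these lists.

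**Figure D5:**
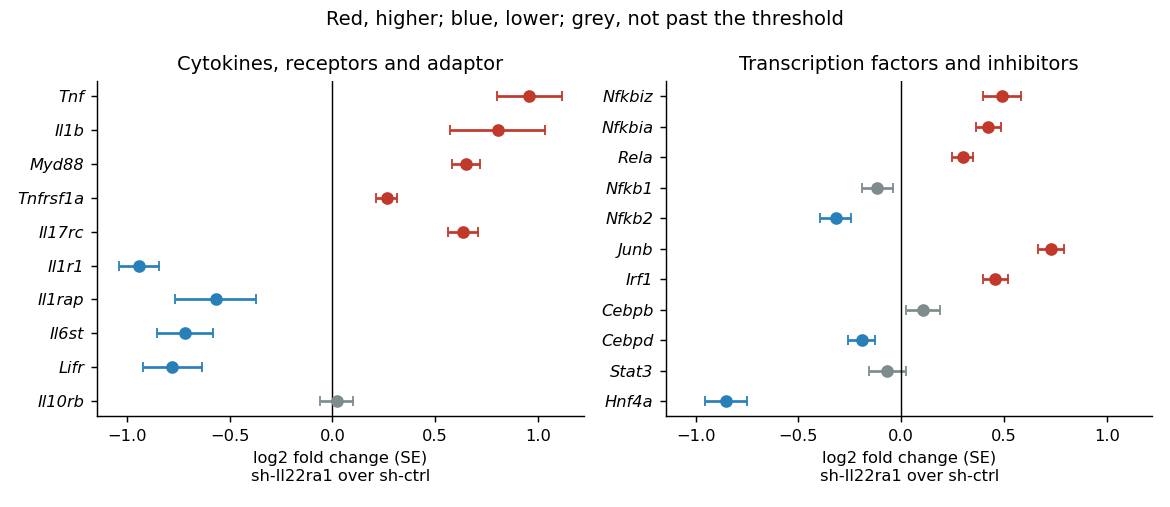
Log2 fold change (sh-Il22ra1 over sh-ctrl) with SE of cytokine and receptor genes (left) and of transcription factors and inhibitors (right); red points were higher, blue lower and grey not past the edgeR threshold. Tnf at 0.96 and Nfkbiz at 0.49 were higher, Il1r1 at -0.94 and Hnf4a at -0.85 lower, and Stat3, Cebpb and Il10rb did not pass.

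Of 11 tested receptors and partners of the proteins encoded by these genes, 1 rose, 5 fell and 5 did not pass (median -0.21). Scarb1 (-0.65), a lipoprotein receptor that binds serum amyloid A, P2rx7 (-0.61), a purinergic receptor, and Lrp1 (-0.58), a scavenger receptor, fell. Itgb2 (0.71), a subunit of the complement receptors for C3 fragments, rose. Slc22a17, which encodes a lipocalin 2 receptor, fell by 0.27 on the log2 scale (SE 0.101), and was named after its value was seen.

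The genes whose profile over the 12 libraries was most like that of Saa3 were Ldhb, Isoc2a, Lrrc51, B9d1 and Ttc25. Likeness was the root mean square difference of centred log2 CPM among 10621 genes of at least 5 CPM. It was 0.196 for Ldhb, the heart-type lactate dehydrogenase subunit, and 0.216 for Isoc2a, and from 0.254 to 0.306 for Lrrc51, B9d1 and Ttc25. Lcn2 differed from Saa3 by 0.440. Lrrc51 overlaps the gene Lamtor1, so its reads are uncertain.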

How the data were processed

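Per the labels' protocols, TRIzol-extracted total RNA went into VAHTS Universal V6 libraries that were read as paired ends on a NovaSeq. HISAT2 2.0.5, HTSeq and mm10 are named in the submitters' processing notes; not given in the sources used here are the annotation, the strand setting and the options of counting. The deposited files hold whole-number read counts per gene symbol. The rows that name no gene, left out of library sizes and tests, took 8.71% to 11.8% of sh-Il22ra1 and 12.8% to 17.3% of sh-ctrl files for unaligned reads, and at most 6.82% for each other kind. A deposited table of the whole series in CPM was not used. Groups were taken from the titles (shRNA for sh-Il22ra1, GFP for sh-ctrl).

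The counts went through edgeR 4.0.16 (R 4.3.3): filterByExpr (minimum count 10, minimum total 15; 13102 of 19024 genes with a read were kept), TMM, and the two-sided quasi-likelihood test with Benjamini-Hochberg adjustment over all tested genes at 0.05. The common biological coefficient of variation was 0.105. Steps were tested on simulated data. Members below the filter were tested by exact permutation of CPM, two-sided, over all 924 splits of 6 against 6 libraries. An adjustment of these p-values over those members had been planned, but they are given unadjusted. Read ratios have exact conditional Poisson intervals at 95%, and the floor of a count of 0 is 3 counts. In the closest pair of libraries within a group the chi-square was 3.96 per degree of freedom, so no library was treated as a duplicate.

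Alternatives were RLE and upper-quartile scaling, scaling without Ins2, Iapp and Rn45s, dropping the low-count filter, requiring a mean of at least 1 CPM, a replicate block, offsets for length and GC content (splines with 4 degrees of freedom), DESeq2 1.42.0, limma-voom (limma 3.58.1), each library left out, and sh-ctrl replicates 1 and 4 left out. Positions, lengths and overlaps came from GENCODE M21 on GRCm38, where 23376 symbols matched directly, 661 by synonym and 384 not at all; promoters came from RefSeq (GRCm38.p6). Python 3.11.15 did the remaining work.

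The members, gene lists, tests and the naming rule were chosen with earlier results of these data known. The rule named the 10 members, Il22ra1, Il10rb, Stat3, Socs3, Cebpb, Cebpd, Rela, Nfkb1 and Nfkbiz, up to 4 called genes of each of 13 lists by smallest p, defining markers above 50 CPM and the 5 genes most like Saa3. The counts and summed level of the whole acinar list are not reported here.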

Additional observations from a re-analysis of the deposited data

Results flagged for a closer look

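Among 19 groups of 6 libraries that were checked for a single library far from the other 5, 4 met the limit (a gap of more than 0.625 of the group's range). For Reg3a in sh-Il22ra1 and for Saa2 and Reg3g in sh-ctrl, 1 library held the only read of the group. The gap then equals the range whatever the library, so this check cannot tell such a library from chance. All 4 rest on 1 to 3 reads. Reg3a stood at 0.0678 CPM (1 read) in sh-Il22ra1 replicate 2 with 0 in the other libraries of its group. In sh-ctrl, Saa1 stood at 0.200 CPM (3 reads) in replicate 5, Saa2 at 0.0763 CPM (1 read) in replicate 4 and Reg3g at 0.0618 CPM (1 read) in replicate 6.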

How the results depend on the processing

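Saa3, Lcn2 and Hp were called higher in sh-Il22ra1 under all 22 alternatives, with log2 fold changes of 1.64 to 2.00, 1.03 to 1.23 and 0.86 to 1.18. When libraries were left out in turn, the number of tested members called lower ran from 0 to 1, the 1 being C3 without sh-Il22ra1 replicate 1. Il10rb turned to -0.064 with length and GC offsets and ran from -0.026 to 0.056 when libraries were left out in turn, negative without sh-ctrl replicate 6 (-0.016) or sh-Il22ra1 replicate 1, and Stat3 turned to 0.054 with the offsets; none of these 4 values was called, and the cause was not tested. Over all genes the offsets gave 4351 higher and 3301 lower in place of 3325 and 3472, and moved the median log2 fold change to 0.04. Without sh-ctrl replicates 1 and 4 the counts were 3781 higher and 4146 lower. List counts that moved by over 1.5 times were the transcription factors with the offsets (10 higher and 6 lower, against 6 and 10), receptors and partners with the offsets or without sh-ctrl replicates 1 and 4 (2 higher, against 1), and, without those replicates, leukocyte (2 higher, against 0), hepatocyte and antimicrobial genes (1 higher each, against 0) and acute-phase genes (1 lower, against 2). With the union of exons as length, the levels of Saa3 and Lcn2 in sh-Il22ra1 were 10.3 and 4.64 CPM per kb, against 48.2 and 13.3 with transcript length.

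Replicate numbers recur in both groups, but same-numbered samples had deviations correlated by -0.03 to 0.23 and only 2 of 6 numbers matched best with their own, so the numbers were not taken to pair samples. With the replicate number as a block, 3463 genes were higher and 3566 lower, 3 members were called higher, and Reg3b had exact permutation p = 0.0938. At this depth, Saa1, Saa2, Reg2, Reg3a and Reg3g lie near the limit of detection, and a difference in them that was not called is not shown to be absent.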

Other observations

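Several genes too low for the test across genes differed in reads between the groups, and were named after their values were seen. With no low-count filter, the edgeR quasi-likelihood test, adjusted by Benjamini-Hochberg, gave the antimicrobial iron binder Ltf (lactoferrin) 63 reads in sh-Il22ra1 and 18 in sh-ctrl (log2 fold change 1.73, SE 0.416, adjusted p = 0.00175). In the same edgeR test Serpina3f, a serpin related to Serpina3n, had 30 reads in sh-Il22ra1 and 4 in sh-ctrl (2.65, SE 0.657, adjusted p = 0.00225). Il10, the interleukin-10 gene, had 12 reads in sh-Il22ra1 and 56 in sh-ctrl (-2.18, SE 0.493, edgeR adjusted p = 0.000966), and the mucin gene Muc4 had 2 and 32 (-3.61, SE 0.883, edgeR adjusted p = 0.00200). S100a9, a calprotectin subunit, had 23 reads in sh-Il22ra1 and 3 in sh-ctrl, up to 16 of them in 1 library, and did not pass (edgeR adjusted p = 0.0502).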
